A study of Macaca fascicularis with 64 samples.

Results

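Insulin and insulin-like growth factors act on islet cells through a shared relay, and 10 of its components were followed here across the endocrine cells of cynomolgus monkey islets. They were taken by name: the receptors INSR, IGF1R and IGF2R, the docking proteins IRS1 and IRS2, the phosphoinositide 3-kinase regulatory subunit PIK3R1, the kinases AKT1 and AKT2 and the transcription factors FOXO1 and FOXO3. All 10 were among the 21041 macaque genes counted. When ligand binds INSR or IGF1R, the receptor phosphorylates IRS proteins, these recruit phosphoinositide 3-kinase, and the lipid it makes brings AKT to the membrane, where AKT is activated. Active AKT phosphorylates FOXO factors and holds them out of the nucleus, so that the same hormone promotes growth and metabolism and silences FOXO target genes. In β-cells this relay is known for sustaining cell mass and identity, and insulin released by β-cells also reaches the neighbouring α- and δ-cells.

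Islet cells were picked by hand from the tail of the pancreas of 16 healthy monkeys. They comprised 4 young females, 4 young males, 4 old females and 4 old males, all without a treatment in the labels. Each monkey gave 4 libraries of single cells, in which transcripts were counted by unique molecular identifiers (UMIs). Of 6141 barcodes, 5908 held more than 800 genes and more than 10000 UMIs (spike-ins counted in this UMI total), which left 338 to 381 cells a monkey. A cell was typed by the highest of 4 hormone transcripts, GCG for α-cells, INS for β-cells, SST for δ-cells and PPY for PP-cells. Each monkey was sampled on its own day, so that animal and day cannot be told apart. The monkey was the unit of every comparison: each type's UMIs were added up within a monkey, provided that at least 5 such cells were present.

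The typing gave 4503 α-cells, 1219 β-cells, 112 δ-cells and 74 PP-cells. Sums could be formed for α-cells and β-cells in 16 monkeys, for δ-cells in 11 (7 young, 4 old) and for PP-cells in 6 (2 young, 4 old). Retained UMIs summed to between 20719761 and 34053080 a monkey, and the median per cell was 64894 in α-cells, 74425 in β-cells, 43776 in δ-cells and 45772.5 in PP-cells. Of the marker genes listed for each type and present in the files, 9 of 11 were highest in α-cells, 9 of 11 in β-cells, 5 of 6 in δ-cells and 4 of 7 in PP-cells. Hormones were mixed in many cells: the leading hormone was at least 4 times the second in 4204 α-cells but in only 384 β-cells, 40 δ-cells and 8 PP-cells. Levels of the members per monkey are given as CPM, UMIs of a gene scaled to a total of 1000000, after trimmed-mean normalisation. Marker levels, pooled levels and means over cells are CPM without that normalisation. Levels of different genes are not compared, because the UMI counts were not scaled to gene length.

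**Figure D1:**
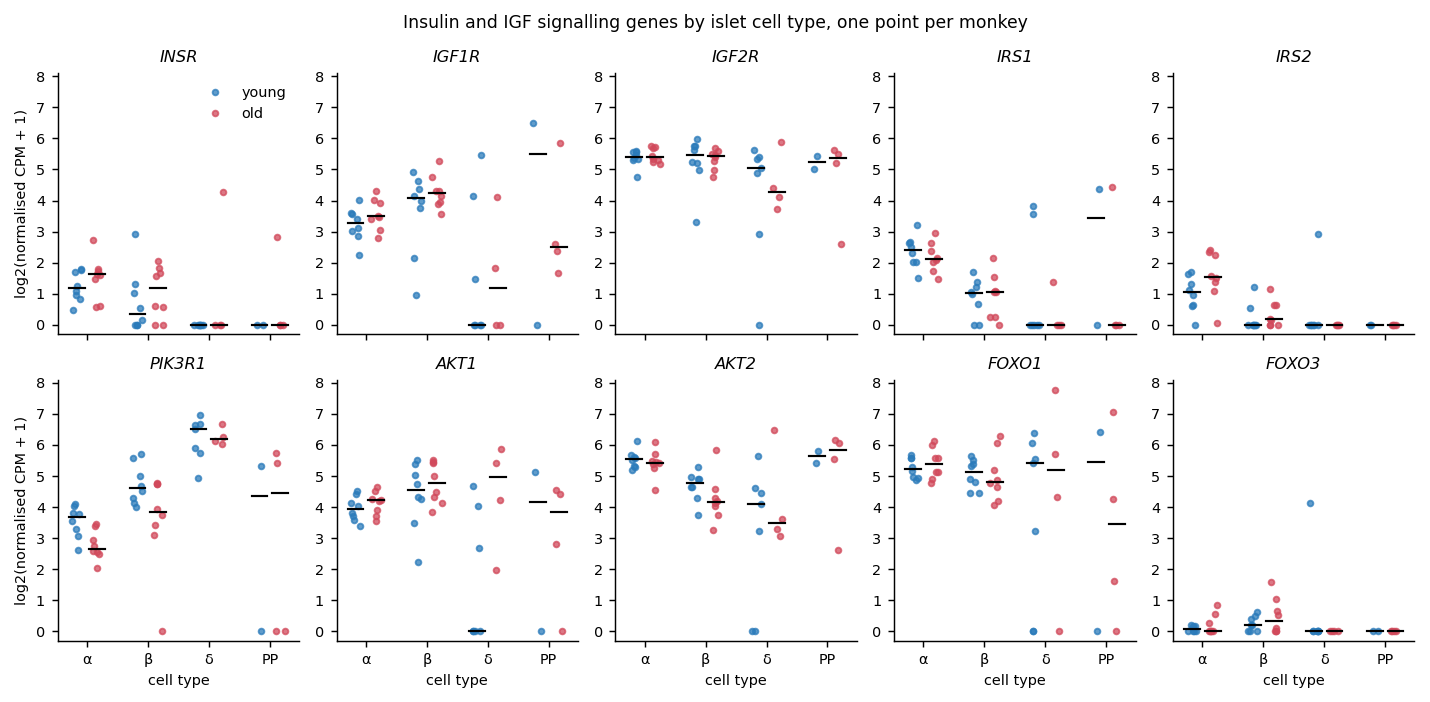
Level of each gene in each cell type, as log2(normalised CPM + 1), with one point per monkey (young blue, old red) and a black bar at the median of each age group. PIK3R1 rises from α- to β- to δ-cells, IRS1 and IRS2 sit highest in α-cells among the types with 16 monkeys, and FOXO3 lies near 0 in all but the δ-cells of YM1.

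Among the receptors, INSR, the insulin receptor, was sparse everywhere. Its level in α-cells ran from 0.383 to 5.59 CPM (median 1.92, n = 16), and in β-cells from 0 to 6.60 CPM (median 0.503, n = 16), with 5 monkeys at 0. Only 101 of 4503 α-cells and 36 of 1219 β-cells held a UMI of INSR, against 1 of 112 δ-cells and 1 of 74 PP-cells. The β- and α-cell ranges overlapped, and INSR was lower in β-cells in 12 of 16 monkeys, a difference that did not pass the test (log2 fold change -1.02 ± 0.64 SE, adjusted p = 0.269, edgeR quasi-likelihood test with the monkey as block). A single cell of the old male OM2 carried all 6 δ-cell UMIs of INSR, so the δ-cell level cannot be separated from 0 at this depth in the other 10 monkeys.

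IGF1R, the receptor through which IGF1 and IGF2 signal, was measured in more cells. It ran from 3.71 to 18.7 CPM in α-cells (median 9.84) and from 0.927 to 37.6 CPM in β-cells (median 16.8). β-cells were the higher type in 13 of 16 monkeys, although the ranges overlapped and the difference did not pass the test (log2 fold change 0.65 ± 0.45, adjusted p = 0.325). In δ-cells IGF1R was at 0 in 6 of 11 monkeys and reached 43.6 CPM in the young male YM2. Against β-cells the δ-cell difference was -1.70 ± 0.65 on the log2 scale and just missed the threshold (adjusted p = 0.0568). It passed under 7 of the alternatives tried, among them DESeq2 (adjusted p = 0.0414) and leaving out YM2 (adjusted p = 0.0202). In PP-cells the 6 values ran from 0 to 88.8 CPM, wider than in any other type.

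IGF2R carries IGF2 and phosphomannose-tagged enzymes to lysosomes and is not known to signal through IRS proteins. Its level was 26.1 to 53.0 CPM in α-cells (median 41.1), 8.81 to 62.0 CPM in β-cells (median 42.3), 0 to 57.5 CPM in δ-cells (median 28.3) and 5.10 to 48.0 CPM in PP-cells (median 39.2). The ranges of all types overlapped, and α- and β-cells differed by -0.11 ± 0.27 on the log2 scale (95% interval -0.66 to 0.44, adjusted p = 0.827). The δ-cell difference from α-cells, -0.73 ± 0.35, had an unadjusted p of 0.0406 and an adjusted p of 0.122. YM3, the monkey with the lowest median UMI count per cell (39036.5), gave the lowest value in both α- and β-cells.

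The docking proteins that couple the receptors to phosphoinositide 3-kinase separated α- from β-cells. Across the 9 members that passed the filter on low counts, 4 differed between β- and α-cells at an adjusted p under 0.05, while 25% of the 12899 genes tested did so, 8.66% higher and 16.3% lower. IRS1, IRS2 and AKT2 were lower in β-cells and PIK3R1 was higher. The median log2 fold change was -0.41 over the 9 members and -0.11 over all genes tested.

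IRS1 ran from 1.80 to 8.24 CPM in α-cells (median 3.71) and from 0 to 3.46 CPM in β-cells (median 1.07). The 2 ranges shared their middle part, but 14 of 16 monkeys had the lower value in β-cells. IRS1 fell by 1.92 on the log2 scale (SE 0.63, adjusted p = 0.0181) and kept its call under all 25 alternatives that could test it. UMIs of IRS1 were found in 282 α-cells and 39 β-cells. With cells thinned to 10000 UMIs, the share of cells with a UMI was 2.51% ± 1.30 (SD, n = 16) in α-cells and 0.957% ± 1.44 in β-cells. In δ-cells IRS1 was at 0 in 8 of 11 monkeys, and in PP-cells in 4 of 6.

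IRS2, the docking protein most closely tied to β-cell survival in rodents, had the lowest fitted β- against α-cell value of the 9 members tested. In α-cells it ran from 0 to 4.35 CPM (median 1.53), and in β-cells from 0 to 1.33 CPM (median 0), with 9 of 16 monkeys at 0. It was lower in β-cells in 14 monkeys, higher in 1 and equal in 1. The fitted difference was -3.31 ± 0.63 on the log2 scale (adjusted p = 5.2e-05) and was called under all 22 alternatives that could test it. The counts behind it were low: 538 UMIs in 84 α-cells against 36 UMIs in 10 β-cells. All 74 PP-cells lacked a UMI of IRS2, which allows a share of up to 4.05% of cells with a UMI and sets no limit on the cells that express the gene. In the 6 monkeys with PP-cell sums, α-cells held 158 UMIs (1.41 CPM pooled), of which 75 came from OM2, and the difference was not called. In δ-cells the 3 UMIs of IRS2 lay in 1 cell.

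**Figure D2:**
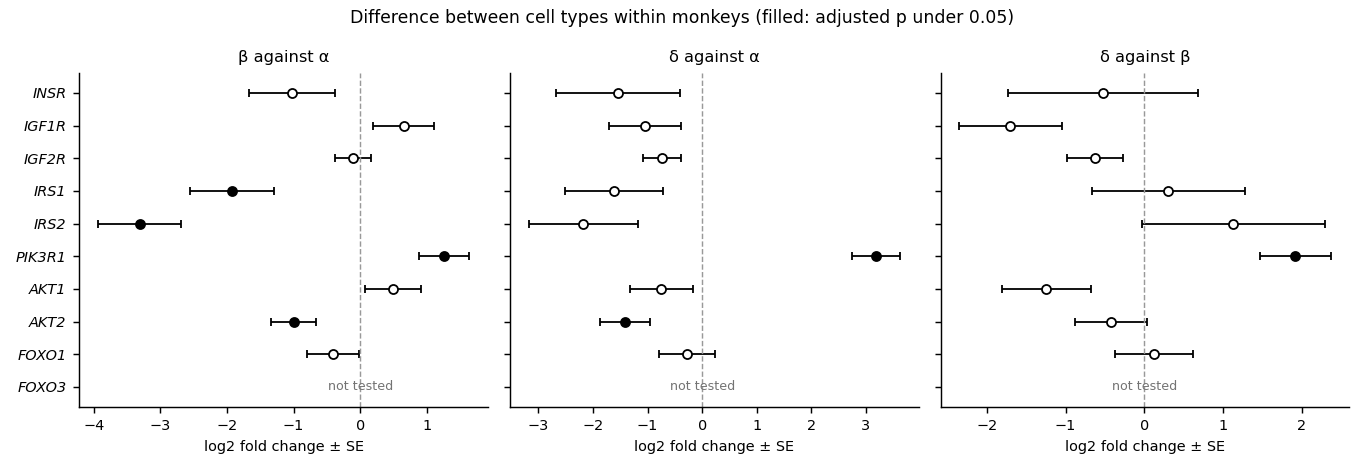
Fitted log2 fold change ± SE of each gene for β- against α-cells, δ- against α-cells and δ- against β-cells, with filled points for an adjusted p under 0.05 in the edgeR quasi-likelihood test. PIK3R1 is filled on the positive side in all 3 panels, while IRS1, IRS2 and AKT2 are filled on the negative side for β- against α-cells and AKT2 alone for δ- against α-cells.

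PIK3R1 encodes the regulatory subunit that holds the catalytic subunit of phosphoinositide 3-kinase and docks it on IRS proteins. It was called in 3 pairs of cell types, more than any other member. Its level ran from 3.12 to 15.98 CPM in α-cells (median 8.04, n = 16), from 0 to 51.5 CPM in β-cells (median 20.1, n = 16), from 29.6 to 123 CPM in δ-cells (median 74.8, n = 11) and from 0 to 51.9 CPM in PP-cells (median 19.7, n = 6). No δ-cell value fell within the α-cell range, and β-cell values overlapped both.

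Within monkeys PIK3R1 was higher in δ- than in α-cells in 11 of 11 (log2 fold change 3.19 ± 0.44, adjusted p = 2.0e-07) and higher in δ- than in β-cells in 10 of 11 (1.92 ± 0.45, adjusted p = 0.0014). It was higher in β- than in α-cells in 14 of 16 monkeys (1.26 ± 0.38, adjusted p = 0.0086). It was the 1 member of 9 called in δ- against β-cells, where 3 had an unadjusted p under 0.05 and 19.8% of all genes were called. Among all genes, 4.36% were called higher in δ- against α-cells, 5.26% in δ- against β-cells and 8.66% in β- against α-cells. Both comparisons with δ-cells stand against a median over all genes below 0, at -0.47 against α-cells and -0.35 against β-cells. With cells restricted to those whose leading hormone was at least 4 times the second, the 3 differences kept their direction (2.96, 1.72 and 1.23) but lost the call (adjusted p = 0.0504, 0.253 and 0.069). That setting was met by 40 δ-cells, 384 β-cells and 4204 α-cells, and the reason for the lost calls was not tested.

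**Figure D3:**
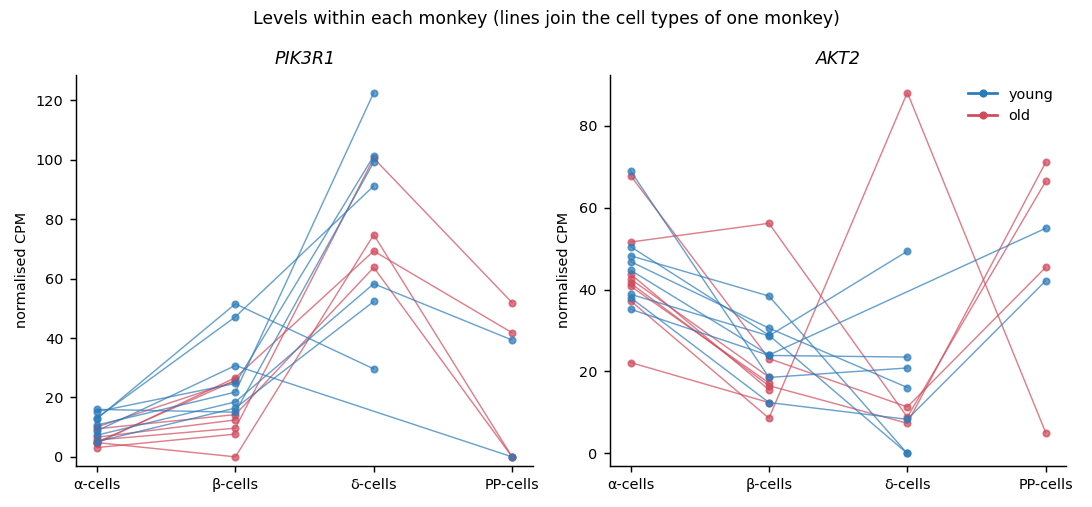
Normalised CPM of PIK3R1 and AKT2 in each cell type, with lines joining the types of 1 monkey (young blue, old red). Every PIK3R1 line that has a δ-cell point lies higher there than at α-cells, and AKT2 falls from α- to β-cells in 15 of 16 monkeys.

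Higher PIK3R1 in δ-cells was seen both in the share of positive cells and in the UMIs they held. A UMI of PIK3R1 was present in 41 of 112 δ-cells, 253 of 1219 β-cells, 546 of 4503 α-cells and 10 of 74 PP-cells. After thinning to 10000 UMIs a cell, the share was 29.1% ± 12.3 (SD, n = 11) in δ-cells, 9.95% ± 5.66 in β-cells and 5.01% ± 1.77 in α-cells (n = 16 for both). Before thinning the shares were 36.0%, 18.98% and 11.96%, at the median depths given above. Positive δ-cells held 11.6 UMIs on average, positive β-cells 9.34 and positive α-cells 5.21. The 10% of cells with the most PIK3R1 held 66.6% of the δ-cell UMIs, 88.7% of the β-cell UMIs and 96.7% of the α-cell UMIs, so most α-cells had no PIK3R1 count at all.

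In PP-cells PIK3R1 was at 0 in 3 of 6 monkeys and between 39.3 and 51.9 CPM in the other 3. The sums at 0 held 5 (OM2), 6 (OM4) and 8 cells (YM4), the others 6 (YM1), 8 (OF1) and 33 (OF2). Only 10 of 74 PP-cells had a UMI of PIK3R1, so a 0 in so few cells cannot be told apart from sampling. The fitted difference of PIK3R1 from α-cells was 1.45 ± 0.61 (adjusted p = 0.141), yet the values were higher in 3 monkeys and lower in 3. Taken from means over cells without trimmed-mean normalisation, the mean of per-monkey differences was -0.49 on the log2(CPM + 1) scale. All 5 monkeys with both types had less PIK3R1 in PP- than in δ-cells (-1.74 ± 0.64, adjusted p = 0.0684).

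**Figure D4:**
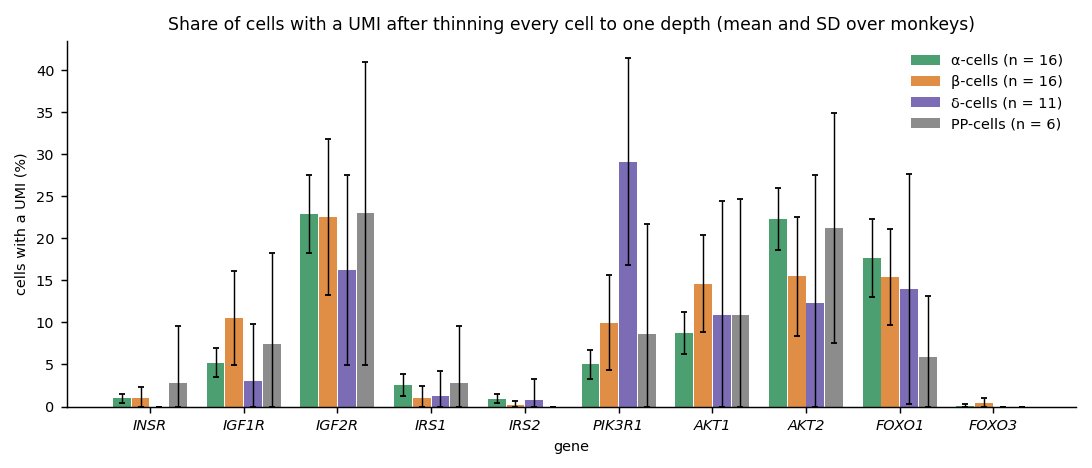
Share of cells with at least 1 UMI of each gene after thinning to 10000 UMIs, as the mean over monkeys with SD bars (the lower bar stops at 0). Only cells with at least 10000 macaque UMIs were thinned and counted (4464 α-, 1213 β-, 112 δ- and 74 PP-cells). PIK3R1 reaches 29.1% in δ-cells against 5.01% in α-cells, and IGF2R and AKT2 are in more than 20% of α-cells.

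Acinar and Schwann-cell markers moved with the δ-cell comparisons. Of 13 acinar genes listed, 7 were in the files and their summed level was 68.4 to 1123 CPM in δ-cells against a median of 3.79 CPM in α-cells, where it ran from 1.61 to 2426 CPM. This sum was CPB1, a carboxypeptidase, which had a δ-cell median of 344 CPM, while the other 6 acinar genes had a median of 0 there. The 4 Schwann-cell genes summed to 0 to 421 CPM in δ-cells (median 66.9), 0.581 to 22.5 CPM in α-cells (median 4.34) and 0 to 80.5 CPM in β-cells (median 6.21). S100B, a calcium-binding protein, made up most of this sum, with a δ-cell median of 39.3 CPM, while SOX10 and CDH19 had a median of 0 there. The part of acinar or Schwann-cell RNA in the δ-cell results was not tested beyond leaving out the 1 δ-cell and 78 α-cells with several non-endocrine markers, which left the number of members called unchanged.

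Of the AKT kinases, which phosphorylate the targets of the relay, AKT2 fell and AKT1 did not pass the test. AKT2, the form best known for glucose handling, ran from 22.2 to 68.9 CPM in α-cells (median 43.2) and from 8.61 to 56.2 CPM in β-cells (median 20.9). It was lower in β-cells in 15 of 16 monkeys (-0.998 ± 0.34, adjusted p = 0.0241). Leaving out OF2 or YM1 ended that call (adjusted p = 0.0583 and 0.0505). So did reducing α- and β-cells to the number of δ- or PP-cells (-0.86, edgeR adjusted p = 0.552). In δ-cells AKT2 ran from 0 to 88.1 CPM (median 11.3), was lower than in α-cells in 9 of 11 monkeys (-1.42 ± 0.46, adjusted p = 0.0196) and was lower than in β-cells in 8 of 11 (-0.42 ± 0.46, adjusted p = 0.564). The δ- against α-cell call was lost with median-of-ratios scaling (adjusted p = 0.0632) and without OF2 or YM2 (0.0594 and 0.0543). It was also lost in cells whose leading hormone was at least 4 times the second (-3.15, edgeR adjusted p = 0.083). With the reduced α- and β-cells it was lost too (-1.20, edgeR adjusted p = 0.470). PIK3R1 and AKT2 were the 2 of 9 members called in that comparison, beside 23.2% of all genes (4.36% higher and 18.9% lower). PP-cells had AKT2 levels of 5.10 to 71.0 CPM (median 50.2), and the difference from α-cells was 0.07 ± 0.52 (95% interval -0.97 to 1.10).

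AKT1, the form best known for growth and survival, ran from 9.43 to 24.2 CPM in α-cells (median 15.8) and from 3.71 to 45.1 CPM in β-cells (median 23.5). β-cells were higher in 13 of 16 monkeys, but the fitted difference of 0.50 ± 0.42 did not pass the edgeR test (adjusted p = 0.432). An exact sign-flip test of the per-monkey differences in mean CPM per cell gave p = 0.0237 before adjustment. That test was chosen after seeing the data. AKT1 and AKT2 thus had fitted β- against α-cell differences of opposite sign, of which only the AKT2 value was called, and whether they differ from each other was not tested. In δ-cells AKT1 was at 0 in 4 of 11 monkeys and reached 57.7 CPM in OM2.

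The FOXO factors are the nuclear end of the relay. FOXO1 ran from 26.1 to 69.1 CPM in α-cells (median 36.5), from 15.7 to 77.1 CPM in β-cells (median 28.7), from 0 to 218 CPM in δ-cells (median 41.6) and from 0 to 133 CPM in PP-cells (median 10.1). The ranges overlapped in every pair of types and no pair passed the test. The β- against α-cell difference was -0.41 ± 0.39 (95% interval -1.18 to 0.37, adjusted p = 0.496). UMIs of FOXO1 were spread unevenly over cells, with 9.81 UMIs in the average positive α-cell and 101 in a single δ-cell. Such unevenness was not particular to FOXO1, since a single α-cell held 391 UMIs of AKT2. The δ-cell maximum of 218 CPM for FOXO1 belonged to OF1 alone.

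FOXO3 was nearly absent from these libraries. It had 39 UMIs in 12 α-cells, 37 UMIs in 14 β-cells, 4 UMIs in 1 δ-cell and none in PP-cells, and it failed the filter on low counts in every comparison. Its highest level in any α- or β-cell sum was 1.996 CPM, in β-cells of OM3.

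Age was then compared within each cell type, between 8 old and 8 young monkeys in α- and β-cells, with sex as a covariate. No member was called in any type by the edgeR quasi-likelihood test or by DESeq2: of the 9, 6, 3 and 5 members tested in α-, β-, δ- and PP-cells, an unadjusted p under 0.05 was reached by 1, 1, 0 and 0. Few genes of any kind were called by edgeR at this level, 0 of 12916 in α-cells (0%), 5 of 10628 in β-cells (0.047%) and 0% in δ- and PP-cells, while DESeq2 called 24, 39, 3 and 1. The median log2 fold change of the members was 0.19 in α-cells and 0.02 in β-cells, and that of all genes was 0.00 and -0.01.

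The 1 member under an unadjusted p of 0.05 was PIK3R1 in both α- and β-cells. In α-cells it ran from 5.12 to 15.98 CPM in young monkeys (median 11.8) and from 3.12 to 10.1 CPM in old monkeys (median 5.29). All 8 old monkeys lay below the young median, but the ranges overlapped. The difference was -0.80 ± 0.27 on the log2 scale (unadjusted p = 0.0094, adjusted p = 0.695), and under the 27 alternatives it stayed between -0.96 and -0.61 with an adjusted p from 0.359 to 0.934. An exact two-sided permutation test over monkeys of the mean log2(CPM/10 + 1) per cell gave p = 0.0395 before adjustment over the 10 members (n = 8 and 8).

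In β-cells PIK3R1 ran from 15.0 to 51.5 CPM in young (median 23.2) and from 0 to 26.6 CPM in old monkeys (median 13.3). Here 5 of 8 old monkeys were below the young median and 3 above it. The difference was -0.99 ± 0.43 (unadjusted p = 0.0294, adjusted p = 0.870), and the exact permutation test gave p = 0.202. The value of 0 belonged to OM4, which had 22 β-cells. The age difference in β-cells minus that in α-cells was -0.24 ± 0.54 (adjusted p = 0.987). In δ-cells the age groups overlapped fully, at 29.6 to 123 CPM in 7 young and 63.8 to 101 CPM in 4 old monkeys (0.00 ± 0.64, adjusted p = 1.00).

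**Figure D5:**
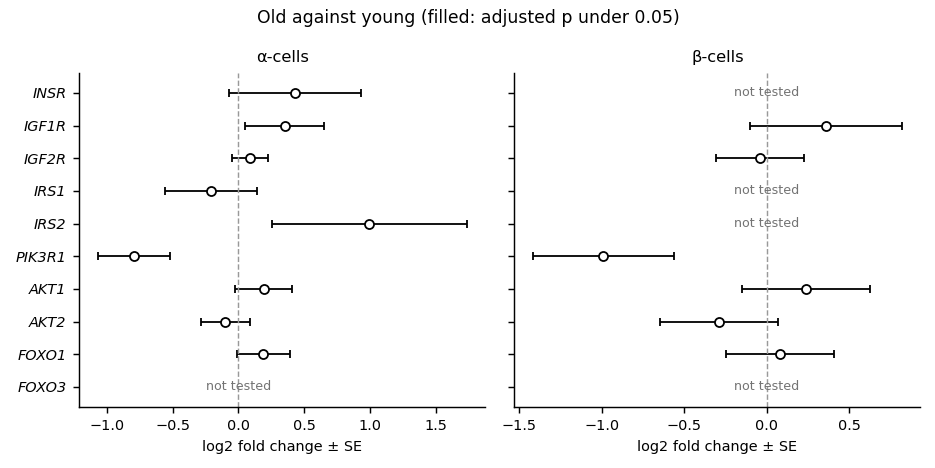
Fitted log2 fold change ± SE of each gene for old against young monkeys in α-cells and β-cells, with open points where the adjusted p was 0.05 or more. Every point is open, and PIK3R1 lies at -0.80 in α-cells and -0.99 in β-cells.

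The remaining members gave old-minus-young intervals that covered 0. For the best measured genes these were narrow: IGF2R in α-cells differed by 0.09 (95% interval -0.19 to 0.37), AKT2 by -0.10 (-0.49 to 0.29), AKT1 by 0.19 (-0.26 to 0.65) and FOXO1 by 0.19 (-0.23 to 0.61). For sparse genes they were wide: INSR in α-cells differed by 0.43 (-0.62 to 1.49) and IRS2 by 0.997 (-0.56 to 2.55). IRS2 in α-cells ran from 0 to 2.27 CPM in young and from 0.039 to 4.35 CPM in old monkeys, with 7 of 8 old monkeys above the young median and an adjusted p of 0.839. In β-cells INSR, IRS1 and IRS2 had too few UMIs to pass the filter, so that an age difference in them was not detectable at this depth. AKT1 in δ-cells was at 2.95 to 57.7 CPM in the 4 old monkeys and at 0 to 24.8 CPM in the 7 young ones, 4 of which were at 0. It did not pass the filter on low counts in the age comparison of δ-cells, and the exact permutation test gave p = 0.0242 before adjustment over the 10 members.

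Summed ductal markers had a higher median in old than in young α-, β- and δ-cells, and a lower one in old PP-cells. The 7 ductal genes summed to 113 to 189 CPM in young (median 141) and 185 to 433 CPM in old α-cells (median 227), so that the ranges met only at the edge. In β-cells they summed to 110 to 1492 CPM in young (median 263) and 447 to 5373 CPM in old monkeys (median 1766). The young and old medians were 136 and 270 CPM in δ-cells and 218 and 168 CPM in PP-cells, with overlapping ranges in both types. SPP1, which encodes the secreted protein osteopontin, had medians of 22.0 and 70.2 CPM in young and old α-cells and of 179 and 1687 CPM in young and old β-cells. KRT7 had medians of 12.2 and 41.5 CPM in young and old α-cells, but of 24.1 and 21.3 CPM in young and old β-cells. The ductal genes CFTR and SOX9 had medians of 0 in young and old α- and β-cells. Stellate and acinar sums overlapped between the age groups in α-cells. The 9 stellate genes had a median of 53.3 CPM in young (4.06 to 121 CPM) and 16.1 CPM in old α-cells (4.29 to 283 CPM), and the 7 acinar genes a median of 7.80 CPM (2.62 to 2426) and 2.84 CPM (1.61 to 53.4). Without the cells that carried several non-endocrine markers, the PIK3R1 age difference was -0.75 in α-cells (edgeR, adjusted p = 0.655) and -0.97 in β-cells (adjusted p = 0.890). The part of these markers in the age comparison was not tested otherwise.

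Sex was balanced in the design and no member was called for it by edgeR (α-cells 0 of 9, β-cells 0 of 6, beside 0% of all genes in both). PIK3R1 in β-cells had the lowest unadjusted p, with 9.65 to 51.5 CPM in 8 females and 0 to 30.7 CPM in 8 males (-0.99 ± 0.43, unadjusted p = 0.0293, adjusted p = 1.00). By DESeq2 no member was called for sex either. The age difference in α-cells was compared between males and females, and IGF1R gave the only unadjusted p under 0.05 among the members (-1.26 ± 0.52, p = 0.0271, adjusted p = 0.908). No member was called in it or in the same comparison of β-cells, where 0.00774% and 0% of all genes were.

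The wider pathway was described with 91 other genes in 9 lists, of which 87 were in the files and 75 passed the filter in the fit over cell types. Between β- and α-cells 4 were higher and 11 lower, 20% of the 75 beside 25% of all genes. Among adaptors, GRB10 and GRB14, which bind and restrain the insulin receptor, were lower in β-cells (-2.01 ± 0.51 and -2.64 ± 0.26). Among brakes, 1 of 12 was higher, PTPN1, the phosphatase that strips phosphate from the insulin receptor (1.06 ± 0.25), and 3 were lower, PTPRF (-1.02 ± 0.16), TRIB3 (-2.01 ± 0.57) and SOCS2 (-0.94 ± 0.31). The catalytic subunit gene PIK3CD (-2.01 ± 0.54) and the kinase GSK3A (-2.16 ± 0.40), a target that AKT inhibits, were also lower. EIF4EBP1, the translation repressor that mTORC1 inactivates, was higher in β-cells (1.22 ± 0.23).

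Of 17 tested FOXO factors and genes known as FOXO targets, 2 were higher and 3 lower in β- than in α-cells. G6PC2, a β-cell glucose-6-phosphatase subunit that was also a β-cell marker here, was 6.37 ± 0.69 higher on the log2 scale, and TXNIP, a glucose-responsive arrestin, was 1.94 ± 0.41 higher. PDK4, which blocks pyruvate entry into mitochondria (-2.65 ± 0.17), BCL6 (-2.85 ± 0.67) and the IGF binding protein IGFBP1 (-2.31 ± 0.46) were lower. These are different directions within the same list, and its median was -0.58 beside -0.11 over all genes.

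In δ- against α-cells 2 of the 75 pathway genes were higher, PTPN1 (1.21 ± 0.30) and TXNIP (1.68 ± 0.42), and 11 were lower, 17.3% of the 75 beside 23.2% of all genes. The lower ones included GRB14 (-1.24 ± 0.30), GSK3A (-2.18 ± 0.55), PDK4 (-2.66 ± 0.21), SOCS2 (-1.69 ± 0.41) and the AKT phosphatases PHLPP1 and PHLPP2 (-2.33 ± 0.82 and -1.58 ± 0.51). The lists' median of -0.42 was close to the -0.47 of all genes. Beside PIK3R1, none of the 5 other phosphoinositide 3-kinase subunit genes tested was called in this comparison. In PP- against α-cells 0 were higher and 5 lower, in δ- against β-cells 3 and 5, in PP- against β-cells 7 and 9, and in PP- against δ-cells 6 and 5. These were 6.67%, 10.7%, 21.3% and 14.7% of the 75, beside 6.61%, 19.8%, 17.2% and 10.3% of all genes, and no excess or lack in the lists is read from them. No pathway gene was called by age in any type (edgeR, 0 of 75 in α-cells and 0 of 66 in β-cells).

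PP-cells gave no called member against α-, β- or δ-cells (0 of 9 each, beside 6.61%, 17.2% and 10.3% of all genes). In each of these comparisons 2 members had an unadjusted p under 0.05, and DESeq2 called 1, 1 and 2. Its calls were PIK3R1 against α-cells (1.60, adjusted p = 0.0201), AKT2 against β-cells (1.23, adjusted p = 0.039), and PIK3R1 and AKT2 against δ-cells (-1.80 and 1.42, adjusted p = 0.0073 and 0.0361).

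The genes whose levels ran most like those of 8 members were sought over the 49 sums of a monkey and type, which share libraries within a monkey and differ in depth. Pearson's r of log2(CPM + 1) was 0.81 for IRS2 with COL4A6, 0.79 for IGF2R with FASTKD2, 0.75 for AKT1 with TMEM19, 0.74 for FOXO1 with WFS1, 0.74 for IRS1 with ZNF607, 0.73 for AKT2 with CLCN2, 0.70 for PIK3R1 with C1QL1 and 0.68 for IGF1R with SNX9. Among the far fewer pairs of members, the highest r was 0.48, for IGF1R with FOXO1. Each r given before it was picked as the highest among 12898 genes, so it cannot be set against the r of a pair of members. All these r values describe these sums, in which the sparse members are at 0 in many of the δ- and PP-cell sums.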

How the data were processed

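Single-cell libraries were made by a modified STRT-seq protocol with UMIs and spike-ins. Per the study's methods and the submitters' processing notes, the authors demultiplexed reads with CASAVA 1.8, trimmed them, aligned them with TopHat2 2.0.12 to the Ensembl Macaca_fascicularis_5.0 assembly, assigned them to genes with htseq-count and collapsed UMIs. The deposited values are raw UMI counts per gene and cell in 64 libraries, with 95 spike-ins in the same tables. The spike-ins were left out of levels and tests, but their UMIs counted in the filter on UMIs per cell. Strand handling of the counting is not given in the sources used here. The study's filter on mapping rate was not used here, so the retained cells can differ from its own.

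Groups came from the animal codes in the labels. Cells with more than 800 genes and more than 10000 UMIs were kept. No cell name occurred in more than 1 library, and 0 cells had counts identical to another cell. No doublet caller was run, and an alternative dropped the 5% of cells richest in UMIs in each monkey. Counts were summed per monkey and type (at least 5 cells) and tested in edgeR 4.0.16 (R 4.3.3) with filterByExpr, TMM and the quasi-likelihood F test, and p-values were adjusted by Benjamini-Hochberg over all genes tested. Age was fitted with sex, and cell types with monkey as a block. The SE is the log2 fold change divided by the root of F. A member was called at an adjusted p under 0.05. Alternatives used DESeq2 1.42.0, median-of-ratios factors, other filters, cells thinned to 10000 UMIs, purer cells and leaving out each monkey. The functions were tested on simulated counts. Exact tests used scipy 1.17.1 and numpy 2.4.6. Intervals and floors cover counting error or the spread between monkeys only. Named genes were the 10 members and, from 9 pathway lists, the called genes with the lowest adjusted p. The members and lists were chosen with earlier results of these data known. No sequences or coordinates are given, since no genome of the files' build was used here. One result on the likeness of levels is not reported here.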

Additional observations from a re-analysis of the deposited data

Results flagged for a closer look

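In 18 of 65 groups of 4 to 8 monkeys (1 gene, 1 cell type and 1 age group each), 1 monkey lay far from the rest by Dixon's test. Chance alone gives about 1 in 20, or 3.25 groups, for values without skew, and sums at 0 in most monkeys are skewed.

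In α- and β-cells, with 8 monkeys a group, 7 groups had such a monkey. INSR was highest in old α-cells at 5.59 CPM in OF2 (next 2.46 CPM) and in young β-cells at 6.60 CPM in YM2 (next 1.47 CPM). IGF2R was lowest in young α-cells at 26.1 CPM in YM3 (next 38.9 CPM), and AKT2 was highest there at 68.9 CPM in the same monkey (next 50.5 CPM). AKT2 was highest in old β-cells at 56.2 CPM in OM4 (next 23.2 CPM). IRS2 was highest in young β-cells at 1.33 CPM in YF4, from 10 UMIs, and in old β-cells at 1.24 CPM in OM1, from 7 UMIs.

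In δ-cells IGF1R stood at 43.6 CPM in the young monkey YM2 (next 16.6 CPM) and at 16.2 CPM in the old monkey OF1 (next 2.53 CPM). AKT2 stood at 88.1 CPM in OM2 (next 11.3 CPM). In 4 δ-cell groups all other monkeys were at 0: INSR was at 18.2 CPM in OM2 (6 UMIs), IRS1 at 1.62 CPM in OF2 (1 UMI), IRS2 at 6.54 CPM in YM2 (3 UMIs) and FOXO3 at 16.6 CPM in YM1 (4 UMIs).

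In old PP-cells OM4 was highest for INSR at 6.03 CPM (2 UMIs), for IGF1R at 57.3 CPM (next 5.10 CPM) and for FOXO1 at 133 CPM (next 18.0 CPM). IRS1 stood at 20.4 CPM in OM2 (4 UMIs), with the other old monkeys at 0.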

How the results depend on the processing

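Of 393 recounts of called members, 365 were equal to or within 1.5 times the value given in the report, 12 rose from 0 and 16 moved further. Equal counts include 0 against 0. Most comparisons had 0 called members, so the 365 say little about the comparisons with calls. No called difference changed sign. Of 2893 recomputed fold changes of single genes, 11 lost a call, 27 gained one and 90 moved by more than their SE without a call. Against α-cells, β-cells had 2 called members with cells thinned to 10000 UMIs and 1 with α- and β-cells reduced to the number of δ- or PP-cells, where 6 members were left to test. The δ-cells had 1 with median-of-ratios factors, 1 with purer cells and 1 with the reduced cells. They had 6 by the exact sign-flip test before adjustment, and 1 to 3 when a monkey was left out (1 without OF2, 3 without OM2 or YM3). The 1 member called with purer cells was IGF2R (-3.90, edgeR adjusted p = 0.0252). PIK3R1 and AKT2 both lost their calls in that setting (edgeR adjusted p = 0.0504 and 0.083). Reducing cells took the δ-cell PIK3R1 difference from 3.19 to 6.03 and that of β-cells from 1.26 to 3.003. The PP-cells had 1 by DESeq2, 1 when thinned, 1 without the monkey block and 1 by the sign-flip test. The reduced cells and the sign-flip test were chosen after seeing the data.

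Against β-cells, δ-cells had 2 called members by DESeq2, 3 with at least 10 cells per sum, 2 without the cells richest in UMIs, 3 by the sign-flip test and 1 to 3 when a monkey was left out (3 without OM2 and 2 without OF1, YM1, YM2 or YM4). PP-cells had 1 by DESeq2 and 0 to 1 on leaving out a monkey (1 without YM1). Against δ-cells, PP-cells had 2 by DESeq2, 1 without the monkey block and 0 to 1 on leaving out a monkey (1 without OF2 and 1 without OM2). By age the exact permutation test, unadjusted, gave 1 member in α-cells (PIK3R1) and 1 in δ-cells (AKT1). The cause of these changes was not tested.

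Replicate numbers did not pair the animals: deviations of same-numbered monkeys correlated between -0.10 and 0.15. With a replicate block the age comparisons still had 0 called members in all types, and PIK3R1 differed by -0.82 in α-cells.

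Scaling mattered with δ- and PP-cells. The median gene lay at -0.47 for δ- against α-cells with trimmed-mean factors, -0.26 with median-of-ratios and -0.20 in DESeq2. Of called genes 18.8%, 32.1% and 37.6% were higher, for PP- against α-cells 27.0%, 43.9% and 42.5%, for δ- against β-cells 26.6%, 46.2% and 49.3%, and for PP- against β-cells 38.7%, 53.9% and 54.2%. DESeq2 called 1359 genes for PP- against α-cells where edgeR called 852, and 2103 against 1334 for PP- against δ-cells. Purer cells left PP-cells with no sum to test. With 112 δ-cells and 74 PP-cells, INSR, IRS1, IRS2 and FOXO3 there rest on at most 20 UMIs each.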
